A study of Mus musculus with 16 samples.

Results

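The miRNAs described here are the names of the miR-297, miR-466, miR-467 and miR-669 families, chosen by their names alone: every listed name that begins with 1 of these 4 family numbers, with any letter, copy number or arm. Of 2510 miRNA names listed in the data, 103 qualified: 9 of miR-297, 41 of miR-466, 18 of miR-467 and 35 of miR-669. The families had drawn attention because 3 of their names (miR-669c-5p, miR-467b-5p and miR-467c-5p) were lower in knockout than in control cells of these same libraries. Values of knockout against control are therefore given below as a description, with no test. Tests are given for differentiation and for the lines within a genotype, which are other contrasts of the same libraries. The control GM libraries, in which those 3 names are high, are also the baseline for differentiation in control cells, so for these 3 names that test is not independent of the choice.

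Small RNA was sequenced from C2C12, an established line of mouse myoblasts whose cells fuse into multinucleate myotubes in low serum; the labels call the stock C2C12 PAX7 NEG. The 16 libraries form 4 groups of 4. Wild-type control cells and cells lacking miR-1a-1, miR-1a-2 and miR-206 (triple knockout, tKO) were each taken in growth medium (GM, labelled myoblasts) and after 3 days of differentiation in low horse serum (DM3, labelled myotubes). Each group holds 2 lines, called line 1 and line 2 here, with 2 biological replicates each: the control lines are populations and the tKO lines are clones, so genotype and clonal origin cannot be told apart, and a group stands for 2 lines only.

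In the mouse, most of these miRNAs are encoded in an intron of Sfmbt2, the gene of a Polycomb-group protein that is imprinted and expressed from the paternal allele in extraembryonic tissue. The intron holds a rodent-specific array of repeated hairpins, one of the largest miRNA clusters of the mouse genome, and the cluster is known for its part in placental growth. A mature miRNA pairs with its targets mainly through its seed, here bases 2 to 8, so names with one seed can share targets even where the rest of the sequence differs.

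In the GENCODE M21 annotation (build GRCm38, the same assembly as mm10), Sfmbt2 (ENSMUSG00000061186.15) lies on the plus strand at chr2:10370510-10595253. Of 81 annotated hairpins of the 4 families, 71 lie in a single intron, chr2:10461473-10523944, all on the plus strand and none over an exon. They comprise 5 hairpins of miR-297, 23 of miR-466, 14 of miR-467 and 29 of miR-669, and span 51.6 kb of the 62.5 kb intron. The other 10 lie on chromosomes 3 (Mir466q, Mir466k and Mir669n), 5 (Mir467g), 7 (Mir297-1), 9 (Mir467h), 10 (Mir466j), 11 (Mir467f) and 13 (Mir466i and Mir466f-4). The intron holds 48 further miRNA genes under other annotated names. No read listed under a name outside the 4 families matched a hairpin of this intron.

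**Figure D1:**
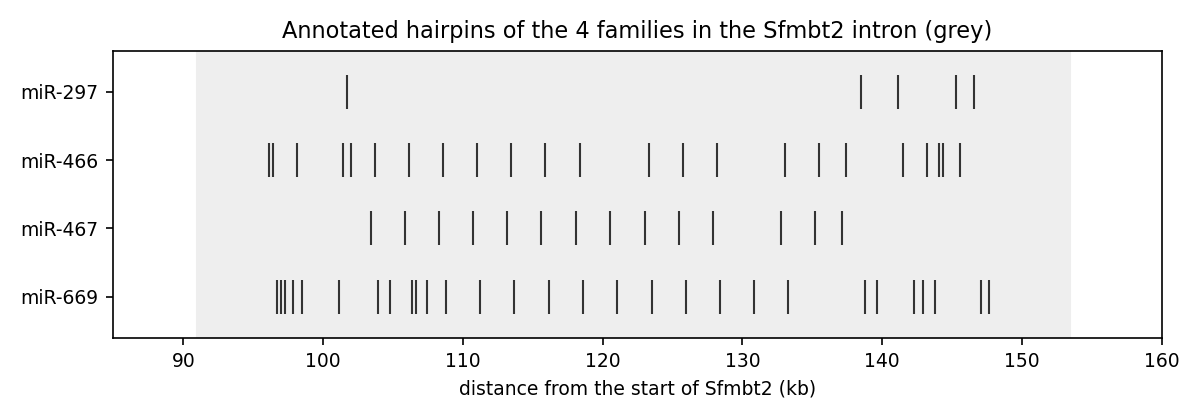
Positions of the 71 annotated family hairpins inside the Sfmbt2 intron (grey), by family, as distance from the start of the gene in kb. All 14 miR-467 hairpins lie between 103 and 137 kb, interspersed with miR-466 and miR-669 hairpins, which also lie on both sides of that stretch. Of the 5 miR-297 hairpins, 4 lie beyond its distal end and Mir297a-2 lies before it, at 101.7 kb.

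The listed sequences below carry most of what follows; capitals mark the seed. The first group are, for 8 of the 10 members with the most reads that match a hairpin exactly, the most read of those matching sequences in the deposited tables.

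miR-467a-5p: tAAGTGCCtgcatgtatatgcg
miR-467b-5p: tAAGTGCCtgcatgtatatgc
miR-467c-5p: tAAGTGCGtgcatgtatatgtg
miR-669c-5p: aTAGTTGTgtgtggatgtgtgtat
miR-669a-2-5p: aGTTGTGTgtgcatgttcatgt
miR-669p-5p: aGTTGTGTgtgcatgttcatgtct
miR-466f-2-3p: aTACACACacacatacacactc
miR-466d-3p: tATACATAcacgcacacatag

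The forms of miR-467a-5p and miR-467b-5p differ only in length and each occurs in 12 hairpins of the intron, so the reads have no unique source; the same holds for miR-669a-2-5p and miR-669p-5p, which occur in 15. The forms of miR-467c-5p, miR-669c-5p, miR-466f-2-3p and miR-466d-3p each occur in 1. Among all 956 sequences listed under the 103 names, 11 stood under 2 names and none under more. A second group of sequences dominates by number and is 13 nt long, here printed without capitals.

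miR-466h-5p: gtgtatgtgcttg
miR-669i-3p: acaggattgacag
miR-467f-5p: cctgtaccgagaa

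Each of these 3 sequences was listed with 1 mismatch to the miRNA it is named for, and none occurs in any annotated miRNA hairpin. They held 1803, 555 and 325 reads over the 16 libraries, which was 98.1%, 95.7% and 77.2% of the reads of their names. By reads, these 3 were the most abundant of the 103 names.

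The 103 names held 5143 reads in all, 0.0133% of the reads listed, and 43 of the names held fewer than 10. A read was called matched when its sequence, of at least 16 nt, occurred exactly in a hairpin of the intron or of the 4 families elsewhere; this split was chosen after the sequences had been seen. Matched reads came to 921.7, or 17.9% of the total (a read that fits several names is shared among them in the deposited tables, hence the fractions), and 50 of the 103 names had at least 1. The matched reads had the length of mature miRNAs, with a median of 22 nt and 95.6% between 20 and 24 nt, and 11.9% of them carried a mismatch to the name they were listed under. The 4221 unmatched reads had a median length of 13 nt, 93.7% were 13 to 15 nt long and 99.3% carried a mismatch. Reads under 16 nt are unmatched by definition, but of the 3956.5 such reads only 0.928% occurred exactly in a family hairpin. In contrast, 12.3% of the reads of all other names carried a mismatch.

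**Figure D2:**
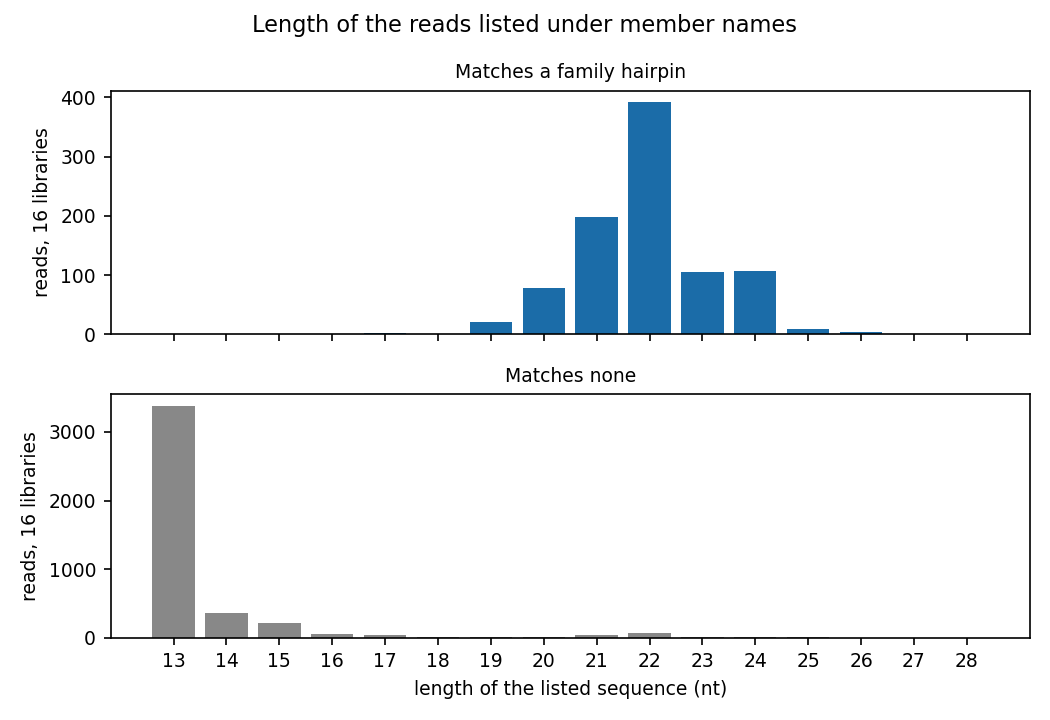
Reads listed under the 103 names by length of the listed sequence, summed over the 16 libraries (up to 28 nt), for reads that match a family hairpin (top) and reads that match none (bottom). Matched reads peak at 22 nt with 392 reads and unmatched reads at 13 nt with 3383 reads; the vertical scales differ.

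Of the matched reads, 97.3% fitted hairpins of the intron only, 2.28% fitted the intron and another place, and 0.434% fitted another place only. The miR-467 family held 48.3% of them, miR-669 held 29.9%, miR-466 held 20.5% and miR-297 held 1.19%. Reads of 5p arms made up 73.6%. Grouped by seed, AAGTGCC (miR-467a-5p and miR-467b-5p) led with 220.8 reads, 24.1% of the matched reads of at least 18 nt. TAGTTGT followed with 117 reads, of which 114 were listed under miR-669c-5p, AAGTGCG (miR-467c-5p and related names) with 107.7, and GTTGTGT (6 names of miR-669, among them miR-669a-2-5p and miR-669p-5p) with 86. The seed TACACAC was carried by 6 names, 5 of miR-466 and 1 of miR-467.

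The matched sequences also shared an inner motif that the choice by name did not use. GCATGT stood in 69 of the 84 matched 5p sequences, which held 81.1% of the matched 5p reads, and in 0 of 407 exact mature 5p sequences of other names. On the 3p arm, ACACA stood in 52 of 62 matched sequences and in 8 of 436 exact mature 3p sequences of other names, and CATAC in 47 and 7. The 3 motifs, written as they read on the miRNA strand, were picked after the sequences had been seen, and many of the sequences overlap one another, so the counts describe these sequences only.

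Library sizes ran from 112792 to 6543570 listed reads, so 3 reads, taken as the least a library can show, correspond to 0.458 to 26.6 CPM, with all listed reads of the library as the denominator. Reads carry no molecular identifiers, so floors and intervals cover counting error only. The knockout was visible in miR-206-3p, at 837 to 1466 CPM in control GM, 19950 to 57442 CPM in control DM3 and at most 70.9 CPM in the 8 tKO libraries; miR-1a-3p was at 12.6 to 47.8 CPM in control DM3 and at 0 in all tKO DM3 libraries. A list of 9 myotube miRNAs summed in control cells to 1066 to 1606 CPM (GM) and 21080 to 58245 CPM (DM3). In tKO cells it summed to 128 to 243 CPM (GM) and 213 to 655 CPM (DM3). The deleted miR-206-3p and miR-1a-3p both belong to the list, so its low tKO sums are not separate from the deletion. In control cells miR-206-3p alone made up most of the sum. A list of 11 miRNAs of other cell types summed in control cells to 72.2 to 125 CPM (GM) and 38.9 to 60.8 CPM (DM3), and in tKO cells to 35.9 to 130 CPM (GM) and 17.6 to 58.6 CPM (DM3). Within it miR-124-3p (neural) and miR-142a-5p (haematopoietic) were at 0 in every library, while miR-9-5p (neural) ranged in GM from 37.1 to 61.1 CPM in control libraries and from 1.62 to 6.13 CPM in tKO libraries; whether this bears on the members was not tested. The library of tKO DM3 line 1 replicate 1 stood apart: it was the smallest, 18.9% of its reads were under 18 nt against 1.88% to 12.8% in the other 15, and 35.4% were listed under miR-6240 and miR-6236.

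Matched reads were near the limit of detection in both tKO clones and present in every control library. In control GM their summed level was 43.1 and 43.5 CPM in line 1 (replicates 1 and 2) and 61.0 and 52.5 CPM in line 2. In tKO GM it was 0.808 and 2.04 CPM in clone 1 and 2.22 and 0.167 CPM in clone 2. The means were 50.0 ± 8.53 and 1.31 ± 0.987 CPM (SD, n = 4 each), a ratio of 38.2, and they rest on 721.5 and 10 reads. The groups did not overlap.

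In DM3 the summed level of matched reads was 36.3 and 28.1 CPM in control line 1 and 25.1 and 42.8 CPM in line 2. In tKO DM3 it was 0 and 2.24 CPM in clone 1 and 0 and 2.20 CPM in clone 2. The depth of the 2 libraries at 0 allows up to 26.6 CPM in clone 1 and 4.07 CPM in clone 2, so the first of them says little. The means were 33.1 ± 8.03 and 1.11 ± 1.28 CPM (SD, n = 4 each), a ratio of 29.8, on 173.1 and 17 reads. Without tKO DM3 line 1 replicate 1, the other 3 tKO libraries still lay below the 4 control libraries. In bulk samples, fewer cells that make a miRNA and less of it per cell cannot be told apart.

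Unmatched reads under the same names did not follow this pattern. In GM they came to 86.5 ± 33.4 CPM (47.5 to 127) in control cells and 143 ± 127 CPM (54.7 to 330) in tKO cells. In DM3 they came to 148 ± 32.4 CPM (118 to 188) in control cells and 151 ± 95.9 CPM (75.5 to 284) in tKO cells (SD, n = 4 each). The genotypes overlapped in both media. The highest values, 330 CPM in tKO GM line 1 replicate 2 and 284 CPM in tKO DM3 line 1 replicate 1, were in the libraries with the largest share of reads under 18 nt within their groups, 6.49% and 18.9%; the part of this in the unmatched level was not tested. The sum over all reads of the 103 names, most of them unmatched, overlapped between genotypes in both media. In GM it averaged 137 CPM (109 to 170) for control and 144 CPM (56.9 to 332) for tKO; the tKO mean rests on line 1 replicate 2 and was 81.2 CPM without it, below control. In DM3 it averaged 181 CPM for control and 152 CPM for tKO, or 109 CPM for tKO without line 1 replicate 1. Matched reads made up 25.4% to 56.2% of the members' reads in control GM libraries and 0.155% to 3.90% in tKO GM.

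**Figure D3:**
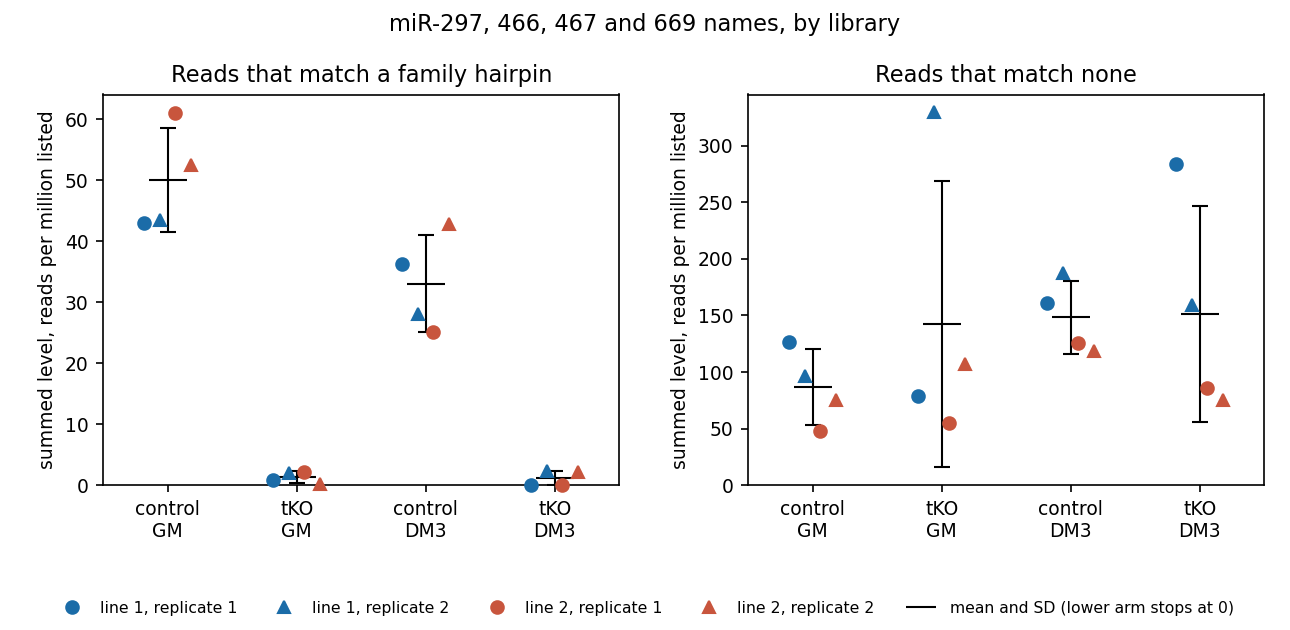
Summed level of the 103 names in each library, in CPM, for reads that match a family hairpin (left) and reads that match none (right); points are libraries, horizontal bars the mean of 4 and whiskers the SD. On the left, control GM libraries sit between 43.1 and 61.0 and tKO libraries at or below 2.24; on the right, the groups overlap.

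Matched reads of miR-467, miR-669 and miR-466 were each lower in tKO, and the first 2 of these families hold the names that drew the choice. In GM the matched level of miR-467 was 20.1 ± 8.45 CPM for control and 0.181 ± 0.262 CPM for tKO, that of miR-669 was 18.2 ± 5.74 and 0.522 ± 0.722, and that of miR-466 was 11.2 ± 2.92 and 0.607 ± 0.473 (SD, n = 4 each). In DM3 the levels were 15.3 ± 7.18 against 0.515 ± 0.598 CPM for miR-467, 8.69 ± 5.81 against 0.215 ± 0.302 for miR-669, and 8.73 ± 3.28 against 0.380 ± 0.450 for miR-466. Without miR-669c-5p, miR-467b-5p and miR-467c-5p the GM levels were 7.39 ± 4.78 against 0 CPM for miR-467 and 8.51 ± 4.66 against 0.383 ± 0.766 for miR-669. In DM3, again without these 3 names, the genotypes of both families overlapped, with miR-467 at 0 to 12.3 CPM in control and 0 to 0.960 CPM in tKO and miR-669 at 0 to 12.1 and 0 to 0.640 CPM. The other 100 members together stood at 27.6 ± 6.49 against 0.990 ± 0.843 CPM in GM (SD, n = 4 each) and at 15.1 to 28.3 against 0 to 2.24 CPM in DM3, and their genotypes did not overlap in either medium. Leaving out the 3 names does not wholly free these levels of the choice. Of the 132.3 control GM reads left to miR-467, 68 were of miR-467a-5p, whose form fits the same hairpins as that of miR-467b-5p. A further 24 were of miR-467h-3p, which shares listed sequences with miR-467c-5p. For miR-297 only 11 matched reads were found, 9 in control GM and 2 in control DM3. Of the 27 matched reads in tKO cells, clone 1 held 5 in GM and 7 in DM3 and clone 2 held 5 and 10, so matched reads were few in both clones.

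Among single members, miR-467b-5p held the most matched reads. In control GM it had 1 and 49.6 reads in line 1 and 14.6 and 57.2 in line 2, for library sizes of 512340, 5514303, 1897820 and 6543570. In control DM3 it had 2, 5, 1 and 29.4 reads in the same order of lines and replicates. In the 8 tKO libraries it had 1 matched read, in GM clone 2 replicate 2. By all its listed reads, on the scale of TMM-scaled CPM, which corrects library sizes for composition, miR-467b-5p lay at 5.82, 10.3, 12.8 and 11.3 in control GM and at 5.69, 5.75, 4.51 and 11.7 in control DM3, and at 0.409 or less in every tKO library. It was the single member whose genotypes did not overlap in either medium.

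The near-identical miR-467a-5p was listed only as its exact mature sequence. It had 1 and 10 reads in control GM line 1 and 14 and 43 in line 2, and 0 in all 4 tKO GM libraries, where 3 of 10990745 reads would be the limit. In DM3 it had 0, 4, 2 and 22 reads in control and 0, 1, 0 and 3 in tKO, so the genotypes overlapped there at the level of single reads. Since both names fit the same 12 hairpins, they are best read together through their seed: reads with AAGTGCC numbered 152.4 for control and 1 for tKO in GM, and 63.4 and 4 in DM3.

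miR-467c-5p, which has another seed, had 2.17, 34, 15 and 34.5 matched reads in control GM (line 1 replicates 1 and 2, then line 2) and 0, 0, 1 and 0 in tKO GM. In control DM3 it had 0, 2, 1 and 9 and in tKO DM3 0, 0, 0 and 1. Its genotypes were apart in GM and overlapped in DM3, where the smaller control libraries held few reads or none. Its exact mature sequence accounted for 74 of its 99.7 matched reads.

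miR-669c-5p had 8, 29, 20 and 48 matched reads in control GM and 0, 0, 1 and 0 in tKO GM. In control DM3 it had 1, 0, 2 and 5, and none in tKO DM3, so the genotypes overlapped there at 0. Its most read form, 24 nt long and so longer than the exact mature sequence of 22 nt, held 61 reads in control GM, 1 in tKO GM and 0 in both DM3 groups. The exact mature sequence held 18 reads in control GM and 5 in control DM3 and was not seen in tKO.

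Other members with matched reads were named after their values were seen. miR-669a-2-5p, whose family member miR-669a has been described as a repressor of MyoD in cardiac progenitors, had 1, 11, 12 and 19 matched reads in control GM and 0 in tKO GM, then 10 in all control DM3 and 1 in all tKO DM3 libraries. miR-669p-5p, which extends the same sequence by 2 bases, had 18, 0, 6 and 1 reads in control GM, tKO GM, control DM3 and tKO DM3. miR-466f-2-3p had 31, 1, 3 and 0 matched reads in these groups, and miR-467h-3p had 24, 0, 9 and 0. The name miR-467h-3p belongs to a hairpin on chromosome 9, but its most read form was listed with a mismatch and fits 1 hairpin of the intron exactly. In DM3 the genotypes of miR-466d-3p overlapped: it had 1, 0, 0 and 3 matched reads in control and 0, 1, 0 and 3 in tKO, from 4564458 control and 8518000 tKO reads in all, for a mean of 1.26 CPM (0 to 4.03) in control and 0.245 CPM (0 to 0.660) in tKO. Those of miR-467e-5p overlapped as well, at a mean of 0.520 CPM (0 to 1.08) and 0.215 CPM (0 to 0.640).

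**Figure D4:**
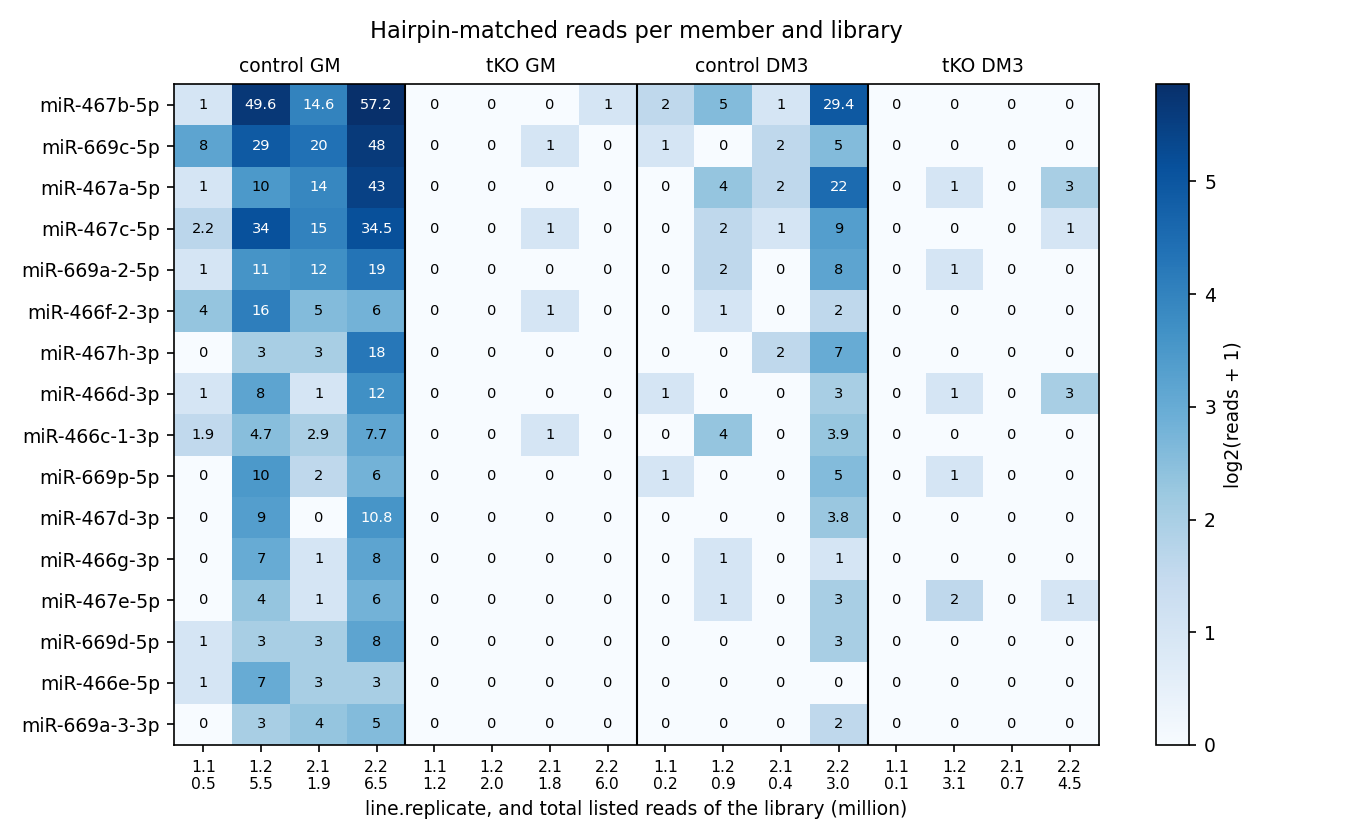
Matched reads of the 16 members with the most of them, in each library; columns are labelled by line and replicate with the library's total reads, numbers are reads (fractions where reads are shared) and shading is log2(reads + 1). Of the 16 members, 10 to 16 have reads in each control GM column and 15 in control DM3 line 2 replicate 2, against 4 to 8 in the other control DM3 columns; the 8 tKO columns hold reads of 0 to 5 members, with 0 to 3 reads per member.

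On TMM-scaled CPM from all their listed reads, 9 of the 103 members were lower in every tKO than in every control library in GM: miR-466c-1-3p, miR-466d-3p, miR-466e-5p, miR-466f-2-3p, miR-467a-5p, miR-467b-5p, miR-467c-5p, miR-669a-2-5p and miR-669c-5p. Over all 2510 names the share was 2.11%. Of the 9, 3 are the names that drew the choice, which leaves 6 of the other 100. Among the 6 is miR-467a-5p, whose form fits the same hairpins as that of miR-467b-5p. In DM3 1 member, miR-467b-5p, was lower in this way, and so none of the other 100, against 1.16% of all names. A single member, miR-466k-3p, was higher in every tKO GM library, at 0.659 to 1.63 TMM-scaled CPM against 0 to 0.605, where 2.75% of all names were. This rests on 1, 3, 1 and 9 reads in tKO GM and 0, 3, 0 and 1 in control GM, and 3 reads in the smallest control GM library would be 5.86 CPM, so a difference was not detectable at this depth. Counting matched reads only, 10 members were lower in GM, against 2.58% of 1550 names, and 2 in DM3, miR-467b-5p and miR-466i-3p, against 2.45%. Without the 3 names that drew the choice these were 7 and 1. The 1550 names are those with a read that matches a hairpin, and only 50 of the 103 members are among them. Without control GM line 1 replicate 1, the smallest control GM library, the count from all reads was 15 in GM, and the share over all names rose to 4.26%. In DM3 it was 5 without control line 1 replicate 1 (2.47% of all names) and 4 without control line 1 replicate 2 (1.87%). It was 2 without control line 2 replicate 1 (1.63%), control line 2 replicate 2 (2.51%) or tKO line 1 replicate 2 (2.07%).

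Differentiation was tested in each genotype, over all names. Only 6 of the 103 members passed the filter on low counts: miR-669c-5p, miR-467c-5p and miR-467b-5p, and the 3 names led by 13-nt sequences, miR-466h-5p, miR-669i-3p and miR-467f-5p. The first 3 reached the filter's level of 5.41 CPM in control libraries only, with 15, 11 and 3 reads in all over the 8 tKO libraries. In control cells 1 of the 6 fell from GM to DM3 and none rose, where 28.3% of the 881 names tested were called. That member was miR-669c-5p, whose log2 fold change was -2.07 (SE 0.69; adjusted p = 0.0309 by edgeR's quasi-likelihood test with Benjamini-Hochberg adjustment). Its level was 15.5, 6.65, 15.6 and 9.80 TMM-scaled CPM in control GM and 2.84, 0, 9.03 and 2.06 in control DM3, so the groups overlapped by 1 library, control DM3 line 2 replicate 1. The choice of this name and the filter both turned on high control GM levels, which favours a fall from GM, so the p-value is not independent support for one.

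The call for miR-669c-5p was weak. It was lost when any of 6 libraries was left out (control GM line 1 replicate 1 and both of line 2, control DM3 both of line 1 and line 2 replicate 2), with adjusted p of 0.0543 to 0.136, and with total counts in place of TMM (0.0968). The other members were not called in control cells: the log2 fold change was -0.45 (SE 0.47, adjusted p = 0.517) for miR-467b-5p and -1.05 (SE 0.59, adjusted p = 0.188) for miR-467c-5p. Nothing is read from the median over the 6, since 3 of them are the names that drew the choice; it was -0.33 beside -0.04 over all 881 names, 0.74 over 8 names of the miR-344 family and 0.01 over 16 names of the X-linked families miR-465, miR-463, miR-883 and miR-743.

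The summed matched level in control cells was 0.661 times as high in DM3 as in GM. This sum includes the 3 names that drew the choice, which are high in control GM, so the fall is not independent of that choice. The highest DM3 library (42.8 CPM) lay just below the lowest GM library (43.1 CPM), whose counting intervals overlap (36.0 to 50.9 and 28.5 to 65.2 CPM, Wilson 95%). With TMM scaling the means were 58.1 ± 17.4 and 29.3 ± 9.88 CPM (SD, n = 4 each), and the ranges, 42.8 to 82.2 in GM and 22.6 to 43.9 in DM3, overlapped. Without the 3 names and without TMM scaling, the media overlapped as well. The matched level of the other 100 members ranged from 21.3 to 34.9 CPM in control GM and from 15.1 to 28.3 CPM in control DM3. The control DM3 libraries differed from control GM in make-up as well, with 4.76% to 12.8% of reads under 18 nt against 1.88% to 2.95%; the part of this in the matched level was not tested.

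In tKO cells 1 of the 6 tested members fell from GM to DM3 and none rose, where 19.9% of all names were called. The count bears on the 3 names led by 13-nt sequences only, since the other 3 passed the filter through control libraries. It was miR-669i-3p, at a log2 fold change of -2.15 (SE 0.71; edgeR, adjusted p = 0.0396). None of its 580 reads matched a hairpin, so the change is one of short fragments listed under this name. Its level was 22.9, 58.1, 15.2 and 17.8 TMM-scaled CPM in tKO GM and 15.3, 5.22, 8.61 and 4.51 in tKO DM3, which overlap at 1 library, tKO DM3 line 1 replicate 1. The call was lost without any of 5 libraries (tKO GM line 1 replicate 2, tKO DM3 line 1 replicate 2, tKO DM3 line 2 replicate 1 or 2, or control GM line 1 replicate 2), with adjusted p of 0.0531 to 0.143. It was also lost with total counts (0.0915) and with a smallest count of 30 (0.0519). In control cells the log2 fold change of miR-669i-3p was -0.21 (SE 0.67, adjusted p = 0.846). Too few matched reads remained in tKO cells, 10 in GM and 17 in DM3, to compare the media there.

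**Figure D5:**
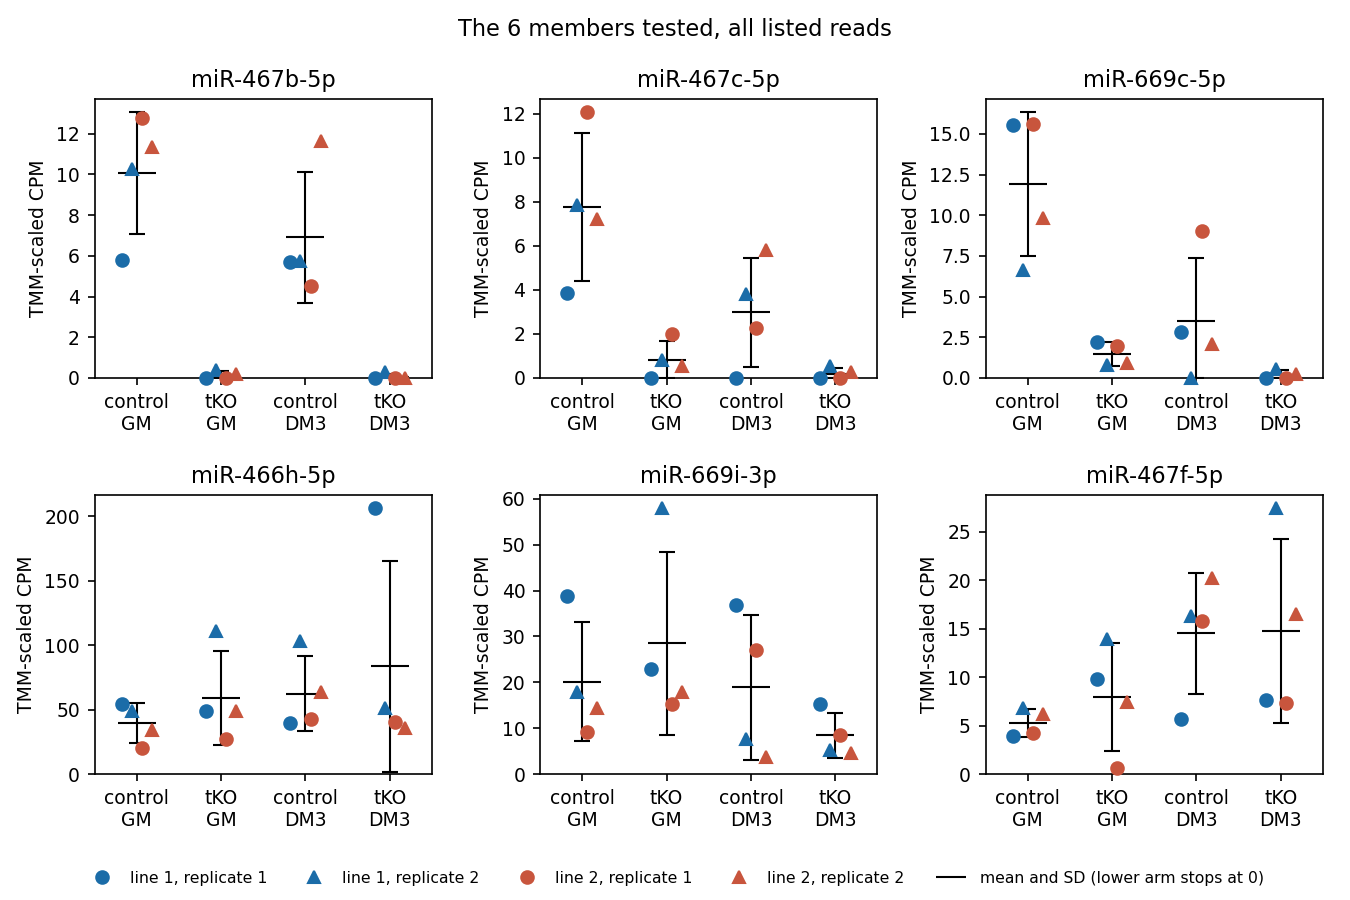
TMM-scaled CPM of the 6 members that passed the filter, by library, from all reads listed under each name; points are libraries, horizontal bars the mean of 4 and whiskers the SD. The upper 3 names, whose reads mostly match hairpins, are low in tKO and apart from control in GM. In DM3 miR-467b-5p is apart, while miR-467c-5p and miR-669c-5p overlap between genotypes. The lower 3, led by 13-nt sequences, overlap between genotypes in both media.

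The 3 names led by 13-nt sequences were, by level, the highest of the 103. miR-466h-5p ranged from 19.9 to 54.3 (control) and 27.0 to 111 (tKO) TMM-scaled CPM in GM, and from 39.8 to 104 (control) and 35.5 to 206 (tKO) in DM3. For miR-467f-5p the ranges, in the same order, were 3.88 to 6.85 and 0.659 to 13.9 in GM and 5.69 to 20.2 and 7.38 to 27.5 in DM3. Its log2 fold change in control cells was 1.45 (SE 0.60; edgeR, adjusted p = 0.0758), and 1.05 (SE 0.57, adjusted p = 0.215) in tKO cells. The control value passed the threshold under other settings, at an adjusted p of 0.0473 with a replicate block and of 0.0377 without tKO GM line 2 replicate 1. For miR-466h-5p these were 0.70 (SE 0.57, adjusted p = 0.386) and 0.34 (SE 0.58, adjusted p = 0.744).

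The remaining names among the 10 highest, miR-669e-3p, miR-466l-3p and miR-669n-5p, held no matched read among 62, 74 and 42 reads. Their mean levels in the 4 groups lay between 1.00 and 2.77 TMM-scaled CPM. miR-297a-2-3p, the highest of its family at a mean of 0.637 TMM-scaled CPM, held 1 matched read of 38, and 33 of its reads were a single 14-nt sequence.

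The genotype difference in the differentiation change (the interaction) was called for 0 of the 6 tested members and for 0% of all names with edgeR, as with DESeq2; at an unadjusted p under 0.05 edgeR gave 0 members and 42 of 881 names. Between the tKO clones, 0 of the 6 members differed (clone 2 against clone 1, mean over both media; edgeR and DESeq2), where edgeR called 1.59% of all names and DESeq2 5.45%. Without tKO DM3 line 1 replicate 2, edgeR called 109 of 927 names between the clones, among them 1 member, miR-466h-5p. These counts bear on miR-466h-5p, miR-669i-3p and miR-467f-5p only; with so few tKO reads, the clone difference and the interaction of miR-669c-5p, miR-467c-5p and miR-467b-5p could hardly be called. The clone difference with the smallest p was that of miR-466h-5p, a log2 fold change of -1.37 (SE 0.50; adjusted p = 0.208), the 1 member with an unadjusted p under 0.05. Between the control populations, 0 of the 6 members and 0% of all names were called by edgeR, and 0 by DESeq2; no member and 41 names had an unadjusted p under 0.05. The control log2 differences (population 2 minus 1) were 0.56 (SE 0.50) for miR-467b-5p, 0.68 (SE 0.66) for miR-467c-5p and 1.31 (SE 0.86) for miR-669c-5p, with adjusted p of 0.770, 0.802 and 0.769.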

How the data were processed

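The files are miRNA tables of 16 small RNA libraries made with unitas, per the file headers and names. The submitters' processing notes name cutadapt 1.15, STAR 2.5.4 and the mm10 build. In the deposited tables a read that fits several entries enters as a fraction, so the values are expected counts without normalization; settings of unitas are not given in the sources used here. Expected counts were summed per name as listed and rounded for tests. CPM are relative to all listed reads of a library.

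Tests used edgeR 4.0.16 in R 4.3.3 on all 16 libraries: filterByExpr by group (smallest count 10), which kept 881 names, TMM, robust quasi-likelihood F tests, and Benjamini-Hochberg adjustment over all names tested, with 4 groups for differentiation and 8 (line by medium) for line differences. The scripts were tested on simulated data. DESeq2 1.42.0 served as an alternative. P-values measure the spread between libraries, of which 2 in each group come from each line.

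Members and lists were chosen with earlier results of these data known. Named are the 3 members that drew attention, the 10 highest by mean TMM-scaled CPM and the highest of each family, those called in a test, and those whose genotypes do not overlap in both media; others are marked as named after their values were seen. Mature sequences are those of the deposited tables: of 935 names with an exact mature sequence, 803 are in the RefSeq table, all 803 with the same sequence.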

Additional observations from a re-analysis of the deposited data

Results flagged for a closer look

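The groups of 4 were checked for a library far from the other 3, for the summed levels and the 6 tested members (36 groups); chance marks about 1 group in 20, and 2 were marked. In tKO DM3, miR-466h-5p was at 206 TMM-scaled CPM in line 1 replicate 1 and at 35.5 to 51.6 in the other 3 libraries, a gap of 0.906 of the group's range. This is the library of 112792 reads with 18.9% of reads under 18 nt. Also in tKO DM3, miR-467b-5p was at 0.275 TMM-scaled CPM in line 1 replicate 2 and at 0 in the other 3, a gap of 1 times the range; this value is a single read.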

How the results depend on the processing

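The alternatives left the interaction and the control populations at 0 members called in every case, and the clones at 0 except without tKO DM3 line 1 replicate 2 (range 0 to 1). For differentiation the counts were small and moved: in control cells 0 with total counts, a smallest count of 30, reads without mismatch, 18 to 25 nt or the hairpin match (chosen after the data were seen), 2 with no filter, and 0 to 2 over the libraries left out; in tKO cells 0 with total counts, a smallest count of 30 and the 3 sets of reads, and 0 to 1 over the libraries left out. Fewer members are tested with the stricter counts (3 with a smallest count of 30, 1 with the 3 sets of reads). Whether replicate numbers pair libraries was not settled. Deviations from group means correlated at 0.100 on average over 48 pairs of the same number (-0.463 to 0.631) and at -0.095 over 48 of different numbers. Replicate 2 was the larger library for each line in each medium. With a replicate block the names called by edgeR rose from 249 to 270 in control cells, from 175 to 188 in tKO cells and from 14 to 24 between the clones. In that fit 2 members were called in control cells, the added one being miR-467f-5p (edgeR, adjusted p = 0.0473), and no other count of called members changed. Without the block, the adjusted p of miR-467f-5p ran from 0.0377 to 0.190 over the libraries left out. Members lower in every tKO library numbered 9 to 15 in GM and 1 to 5 in DM3 over the libraries left out, while the share over all names ran from 2.03% to 4.26% and from 1.08% to 4.34%; with each of the 3 sets of reads they numbered 2 in DM3, where the share was 1.85% to 2.45%. The summed level, tKO minus control on the log2(CPM + 1) scale, was -0.26 in GM and -0.44 in DM3 from all reads; it was -4.29 and -3.79 without mismatch, -5.01 and -4.35 at 18 to 25 nt, and -4.62 and -4.41 with the hairpin match, and ranged from -0.77 to 0.07 and from -0.80 to -0.18 over the libraries left out. Among uncalled members the log2 fold change over the libraries left out ran from -0.49 to 0.81 for miR-466h-5p in tKO (negative without tKO DM3 line 1 replicate 1), from -2.11 to 0.12 for miR-467b-5p in tKO and from -0.75 to 0.21 for miR-669i-3p in control; the sign also changed for miR-467b-5p in control (0.046 at 18 to 25 nt) and in tKO (0.20 with DESeq2), and for miR-669i-3p in control (0.22 with total counts). The cause was not tested. Depth limits single members: 3 reads are 3.24 to 12.1 CPM in 3 of the 4 control DM3 libraries and 26.6 CPM in tKO DM3 line 1 replicate 1.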
